A study of Rattus norvegicus with 11 samples.

Results

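The let-7 family with miR-98 is a group of 8 miRNAs (rno-let-7a, rno-let-7b, rno-let-7c, rno-let-7d, rno-let-7e, rno-let-7f, rno-let-7i and rno-miR-98, written without the species prefix below), taken as the names beginning with let-7, with miR-98 added and passenger-strand (star) names left out, that both array designs carry. They are 8 of 340 miRNA names shared by the designs, of which 152 were detected on at least 5 arrays and tested. The arrays measured miRNAs in islets, the hormone-secreting clusters of the pancreas, from 13-week-old daughters of Sprague Dawley rats. Control daughters had fathers on chow of 9% fat and HFD daughters had fathers on high-fat pellets of 43% fat. The mothers ate chow, and all daughters were weaned onto chow at 3 weeks. Fathers were mated at 15 weeks of age. Before harvest the daughters were tested for glucose tolerance, at weeks 6 and 12, and for insulin tolerance, at week 11. Each of the 11 numbered samples has 1 array. A first array design was used for 4 Control and 4 HFD samples, and a second one for 2 Control samples and 1 HFD sample. Shared fathers and litters are not given in the labels, so p-values treat the samples as independent.

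A miRNA lowers the output of mRNAs that pair with its seed, the bases 2 to 8 from its 5′ end. let-7 miRNAs hold down growth and fetal-programme transcripts such as Hmga2, Lin28 and Ras family mRNAs and, in mouse models, components of insulin and IGF signalling, and they accumulate as cells mature. LIN28 proteins in turn block the maturation of let-7 precursors. The series asks whether what a father eats is accompanied by other miRNA levels in the islets of his daughters.

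The mature sequences are shown because the members have the same seed, in capitals, and differ by few bases outside it, which is also what an array probe must tell apart. They are RefSeq sequences annotated on GRCr8, matched by name for 8 of 8 members.
let-7a: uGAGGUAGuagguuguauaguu
let-7b: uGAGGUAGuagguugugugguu
let-7c: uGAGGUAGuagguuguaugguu
let-7d: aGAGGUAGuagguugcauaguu
let-7e: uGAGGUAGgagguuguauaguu
let-7f: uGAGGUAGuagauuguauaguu
let-7i: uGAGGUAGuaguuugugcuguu
miR-98: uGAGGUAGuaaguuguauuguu
Counted from the 5′ end, with the let-7a base first, let-7c differs from let-7a by A19G, let-7e by U9G and let-7f by G12A. let-7b differs by A17G and A19G, let-7d by U1A and U16C, and miR-98 by G11A and A19U. let-7i is the most distant, with G12U, A17G, U18C and A19U. This seed occurs in 9 of 693 mature names in the RefSeq set, namely the 8 members and let-7g, a name that neither array design carries.

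The members come from several loci on GRCr8. On chromosome 17, plus strand, let-7a (16320145 to 16320166), let-7f (16320508 to 16320529) and let-7d (16322273 to 16322294) lie within the long non-coding RNA gene LOC120097935. On chromosome 7, plus strand, a let-7c copy (118683636 to 118683657) starts 408 bases before let-7b (118684044 to 118684065). On chromosome X, plus strand, a let-7f copy (24460052 to 24460073) and miR-98 (24460663 to 24460684) lie within the protein-coding gene Huwe1, which encodes a ubiquitin ligase. let-7e on chromosome 1 (67350243 to 67350264, plus strand, within Spaca6), the other let-7c copy on chromosome 11 (29688127 to 29688148, plus strand) and the other let-7a copy on chromosome 8 (50805219 to 50805240, plus strand) lie beside miR-99, miR-100 and miR-125 genes. let-7i on chromosome 7 (60527935 to 60527956, minus strand) lies apart from the others. Exon or intron was not analysed here. Mature let-7a, let-7c and let-7f each have 2 gene copies in the table, whose outputs cannot be told apart on the array.

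All 8 members were detected on all 11 arrays, as were 25.0% of the 340 shared names. No member spot was saturated, and 1751 of 1760 were well above background. Each member had 2 probes of 10 spots on each design. Signal varied between spots of one probe on one array with a median coefficient of variation of 6.26%. The islet label held: all 5 endocrine markers, among them miR-375 and miR-7a, were detected on all 11 arrays, with a summed scaled signal of 18307 to 23181 on first-design Control arrays and 18641 to 22011 on first-design HFD arrays. The liver marker miR-122 and the muscle markers miR-1, miR-133a and miR-206 were not detected on any array. Of the 2 shared acinar markers, miR-216a was detected on all arrays, and miR-217 on Control 602 and all second-design arrays. Of the red cell markers, miR-451 was detected on all second-design arrays and no others, and miR-144 was never detected. HFD 653 stood apart, with 105 shared miRNAs detected where the other first-design arrays had 138 to 157. Its negative-control spots had an SD of 11.6, and those of the other first-design arrays 2.03 to 2.41. On the second design this SD ran from 7.18 to 9.04.

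No member of the family differed detectably between the islets of HFD and Control daughters. With limma, array design as a block and Benjamini-Hochberg adjustment over 152 miRNAs, 0 of 8 members passed an adjusted p of 0.05, as did 0% of all tested miRNAs, and each member had an adjusted p of 0.987. At an unadjusted p of 0.05 the counts were 0 of 8 members and 1.97% of all tested. With the scaling percentile taken over all 340 shared names, let-7e (-0.39, unadjusted p = 0.030) and let-7b (-0.32, unadjusted p = 0.045) fell under that limit, both with a limma adjusted p of 0.801. Levels are given as the log2 of the summed probe signal scaled between arrays, and differences are HFD minus Control on that scale. The standard errors of the 8 differences ran from 0.078 to 0.12, against a median of 0.18 over all tested miRNAs. The 95% interval lay within a 1.5-fold change in both directions for 8 of 8 members, and for 54.6% of all tested. The intervals do not include what another scaling would change.

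**Figure D1:**
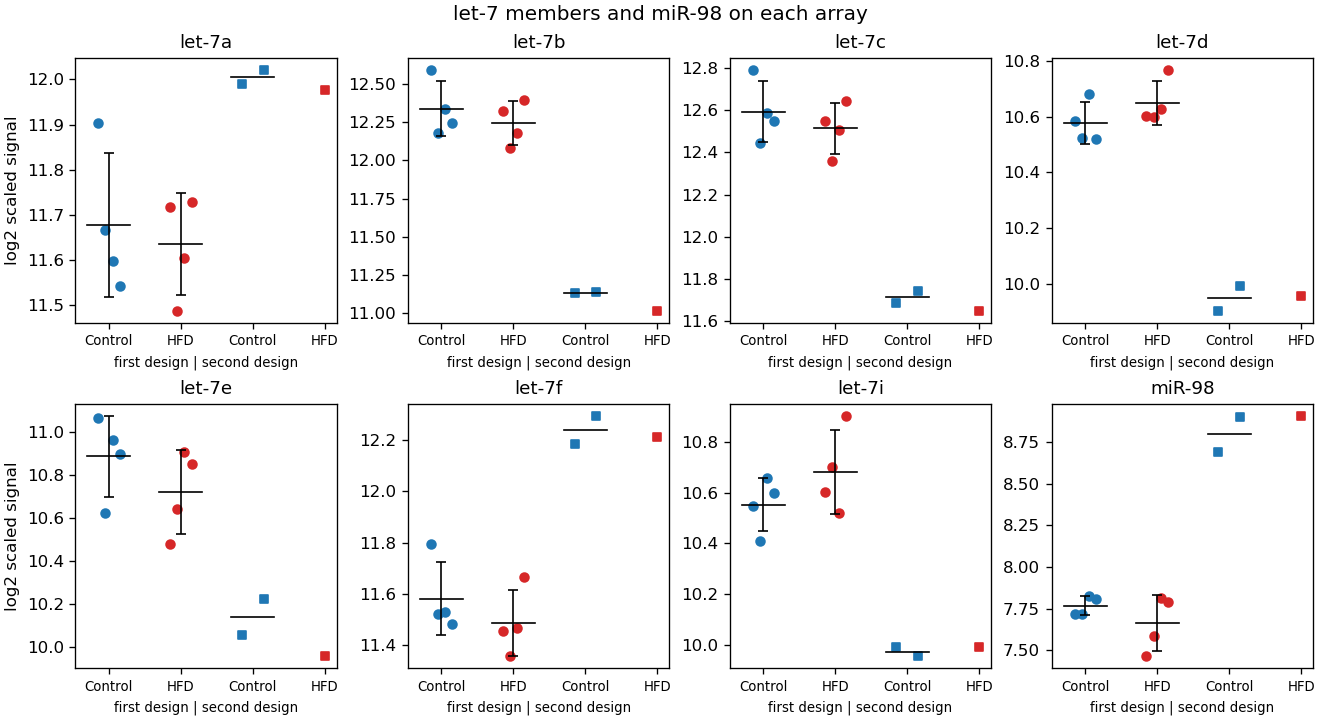
Log2 scaled signal of each member on each array, with circles for the first array design, squares for the second, blue for Control and red for HFD. Horizontal lines are group means and bars are SD (n = 4), and each panel has its own axis. The groups overlap within the first design for all 8 members. Of the 152 tested miRNAs, 0.658% do not overlap there with HFD lower, and 0.658% with HFD higher.

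let-7e read lowest in HFD relative to Control. Its first-design Control arrays 602, 613, 615 and 639 read 11.07, 10.62, 10.96 and 10.90, and HFD arrays 603, 607, 644 and 653 read 10.48, 10.64, 10.90 and 10.85. HFD 603 lay below all Control arrays of its design, while the other HFD arrays lay among them. On the second design Control 635 and 652 read 10.06 and 10.22 and HFD 640 read 9.96, below both. The fitted difference was -0.17 ± 0.12 (SE; limma adjusted p = 0.987), with a 95% interval from 0.744 to 1.06 in fold. The first design alone gave -0.17 and the second -0.18. HFD 603 also had the highest first-design summed signal of the leukocyte markers (miR-142-3p, miR-142-5p, miR-150 and miR-223), at 356.3 against 33.1 to 40.4 on the 4 first-design Control arrays, with 2 of those 4 markers detected on at least 5 arrays and miR-142-5p never detected. Its acinar sum was 666 (Control 21.0 to 623) and its endothelial miR-126 signal 613 (Control 388 to 501). Its fibroblast and smooth muscle sum was 591 (Control 262 to 453). On this array the acinar sum came from miR-216a alone, with miR-217 not detected. Of the fibroblast and smooth muscle sum, miR-143 gave 522 and miR-145 was not detected. miR-199a-3p (49.2) and miR-214 (19.6) lay within their first-design Control ranges. The part of other cells in the let-7e value was not tested, and without HFD 603 the difference was -0.11.

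The chromosome 7 pair let-7b and let-7c read slightly lower in HFD, well within the spread. let-7b had 12.59, 12.18, 12.34 and 12.24 in first-design Control and 12.32, 12.08, 12.18 and 12.40 in HFD, in the array order above. The Control arrays of the second design read 11.13 and 11.14, and the HFD array read 11.02, below both. Its fitted difference was -0.099 ± 0.10 (SE), and -0.039 without Control 602. let-7c had 12.79, 12.45, 12.59 and 12.55 in first-design Control and 12.55, 12.36, 12.51 and 12.64 in HFD, with Control 11.69 and 11.74 and HFD 11.65 on the second design. For both members 1 array, Control 602, was the highest, and HFD 607 was the lowest of its design. The fitted difference of let-7c was -0.076 ± 0.092 (SE), and -0.028 without Control 602. Control 602 also had the highest acinar sum of the first-design Control arrays, 623, where miR-216a read 20.95 to 427 on the other 3, and the lowest endocrine sum of its design, 18307. The part of acinar RNA in the let-7 values of that array was not tested.

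Of the chromosome 17 cluster, let-7a and let-7f read lower and let-7d higher in HFD, and none passed the test. let-7a read 11.90, 11.67, 11.60 and 11.54 in first-design Control and 11.72, 11.49, 11.60 and 11.73 in HFD, and on the second design 11.99 and 12.02 in Control and 11.98 in HFD. Control 602 was the highest of its design and HFD 607 the lowest, with the rest interleaved. The fitted difference was -0.040 ± 0.094 (SE), and 0.015 without Control 602. let-7f read 11.79, 11.52, 11.53 and 11.48 in first-design Control and 11.46, 11.36, 11.47 and 11.66 in HFD, and on the second design 12.18 and 12.29 in Control and 12.21 in HFD. HFD 653 lay among the Control arrays and the other first-design HFD arrays just below them. The fitted difference of let-7f was -0.079 ± 0.095 (SE), and -0.026 without Control 602. let-7d read 10.58, 10.52, 10.68 and 10.52 in first-design Control and 10.60, 10.60, 10.63 and 10.77 in HFD. On the second design it read 9.90 and 9.99 in Control and 9.96 in HFD. Its HFD arrays lay within the Control range apart from HFD 653, and its fitted difference was 0.057 ± 0.078 (SE), or 0.026 without that array. let-7d had the smallest spread within groups of the 8 members, an SD of 0.076. The scaling fixed let-7d on Control 652, and on the first design its SD was 0.075 in Control and 0.080 in HFD.

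miR-98 and let-7i completed the family. miR-98 read 7.72, 7.72, 7.82 and 7.81 in first-design Control and 7.46, 7.59, 7.81 and 7.79 in HFD. HFD 603 and 607 lay below the Control range and the other HFD arrays within it. On the second design HFD read 8.91 and Control 8.69 and 8.90, so that the difference was -0.10 in the first design and 0.11 in the second. Its fitted difference was -0.049 ± 0.099 (SE), and 0.0051 without HFD 603. let-7i read 10.55, 10.41, 10.66 and 10.60 in first-design Control and 10.60, 10.70, 10.52 and 10.90 in HFD, and on the second design 9.99 and 9.96 in Control and 9.99 in HFD, where the scaling fixed it on 2 of the 3 arrays. HFD 653 was the highest first-design array and Control 613 the lowest. The fitted difference of let-7i was 0.10 ± 0.095 (SE), and 0.045 without HFD 653. The interaction of diet and array design passed for 0 of 8 members and 0% of all tested at an adjusted p of 0.05 (limma), and for 0 of 8 and 0.658% at an unadjusted p of 0.05. Only 1 HFD array is on the second design, and the fit takes its spread from the other groups.

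**Figure D2:**
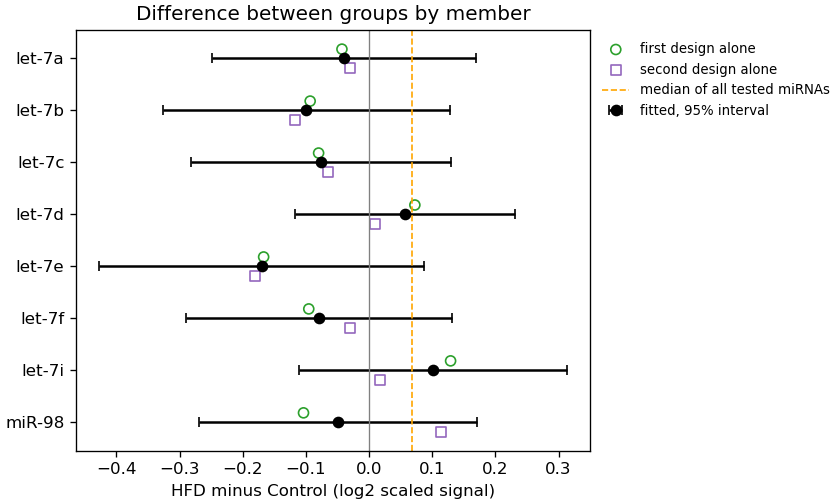
HFD minus Control difference of each member on the log2 scale, with the fitted value and its 95% interval in black, the first design alone as open circles and the second design alone as open squares. All 8 intervals span 0, and the dashed line marks the median of 0.067 over the 152 tested miRNAs.

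As a list, 6 of 8 members read below 0, against 28.9% of all tested miRNAs, and the median difference was -0.063 for the members and 0.067 for all 152. Within the first design 6 of 8 members read below 0 against 38.8% of all tested, and on the second 5 of 8 against 20.4%. The mean over the members was -0.044 ± 0.056 (SE). It was -0.013 without Control 602, -0.021 without HFD 607, -0.071 without Control 613, -0.079 without HFD 653 and -0.083 with the members left out of the scaling. These counts depend on the scaling between arrays, which moves all miRNAs together. Over all 152 miRNAs 108 read above 0. This was 36 when the percentile was taken over all 340 shared names, where the median over the 152 was -0.15 and 8 of 8 members read below 0. It was 134 with unscaled arrays, where the median was 0.16 and 4 of 8 members read below 0. let-7d and let-7i stood above 0 in HFD with the scaling used and below 0 with that percentile or the median. let-7d was also below 0 with the mean log2 or quantile normalisation. let-7e stood below 0 under all 6 alternative scalings run.

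**Figure D3:**
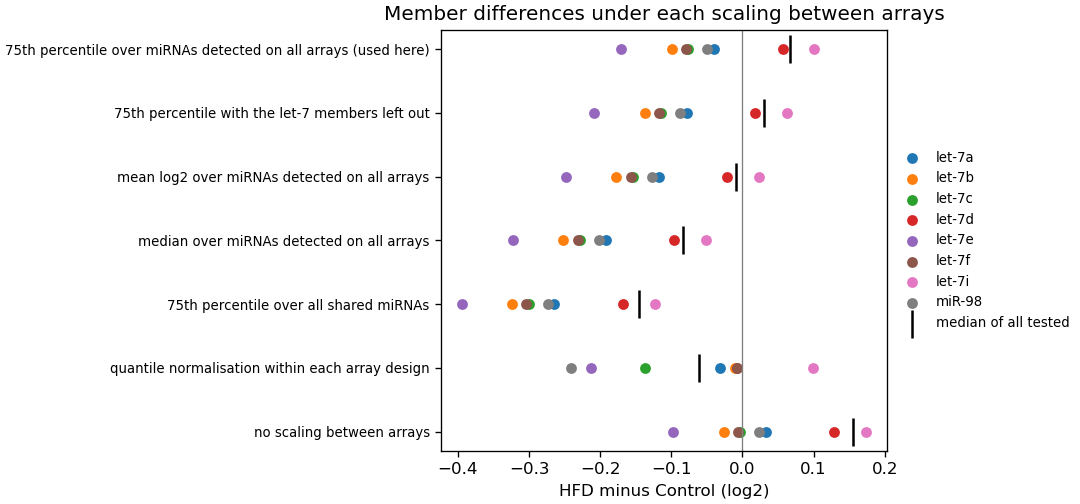
HFD minus Control difference of each member (coloured points, log2) under the scaling used here and 6 alternatives, with a black bar for the median over the 152 tested miRNAs. Under the scalings that shift a whole array by 1 factor, points and bar move together by about the same amount, and let-7e is always the lowest. Quantile normalisation changes the order of the members.

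A ratio within an array is free of the scaling factor. Over the 77 other miRNAs detected on all arrays, the family mean stood above their mean by 2.87, 2.48, 2.52 and 2.62 on Control 602, 613, 615 and 639, and by 2.45, 2.38, 2.58 and 2.58 on HFD 603, 607, 644 and 653. On the second design it stood above by 2.19 and 2.29 in Control and 2.07 in HFD. The groups overlapped on the first design, where Control 602 was highest and HFD 607 lowest, and the HFD array was the lowest of the second. The difference was -0.14 ± 0.078 (SE), and -0.076 without Control 602. It is given as a description, with no test, since the members were chosen with earlier results known.

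The balance within the family was measured as each member minus the family mean of its own array. let-7d was the member whose share was higher on every HFD array. It stood at -0.54, -0.36, -0.34 and -0.44 on first-design Control arrays and -0.30, -0.25, -0.32 and -0.33 on HFD arrays, and at -0.80 and -0.79 against -0.75 on the second design. Every HFD array thus lay above every Control array of its own design, by a narrow margin on both. Relative to the let-7 family mean this held for 1 of 8 members and 1.32% of the 152 tested miRNAs. The 2 shares are not like for like, since members are part of the mean they are set against. The 1.32% is let-7d and 1 more, miR-150, which was named after its values were seen. The let-7d difference was 0.10 ± 0.038 (SE), from 0.070 without Control 602 to 0.12 without HFD 640. With the brighter probes alone the difference was 0.11 and with the dimmer ones 0.090, and in each case the groups of the first design overlapped.

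Every other member overlapped between groups on the first design. Relative to the family mean, 1.97% of the 152 tested miRNAs did not overlap there with HFD higher, and 0% with HFD lower. let-7i stood higher by 0.15 ± 0.066 (SE) in HFD relative to the family mean and let-7e lower by a difference of -0.13 ± 0.070 (SE), which was -0.081 without HFD 603. For let-7e, 3 of 4 first-design Control arrays lay at -0.06 and Control 613 at -0.26, while HFD arrays ran from -0.42 on HFD 603 to -0.05 on HFD 644. let-7a, let-7b, let-7c, let-7f and miR-98 differed by 0.0048, -0.055, -0.032, -0.035 and -0.0049. Without Control 602 those of let-7b, let-7c and let-7f were -0.026, -0.015 and -0.013. The difference of let-7a turned to -0.027 without HFD 603, and that of miR-98 ran from -0.056 without HFD 640 to 0.037 without HFD 603. Of these members, let-7c moved least between arrays, with an SD of 0.051 within groups.

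**Figure D4:**
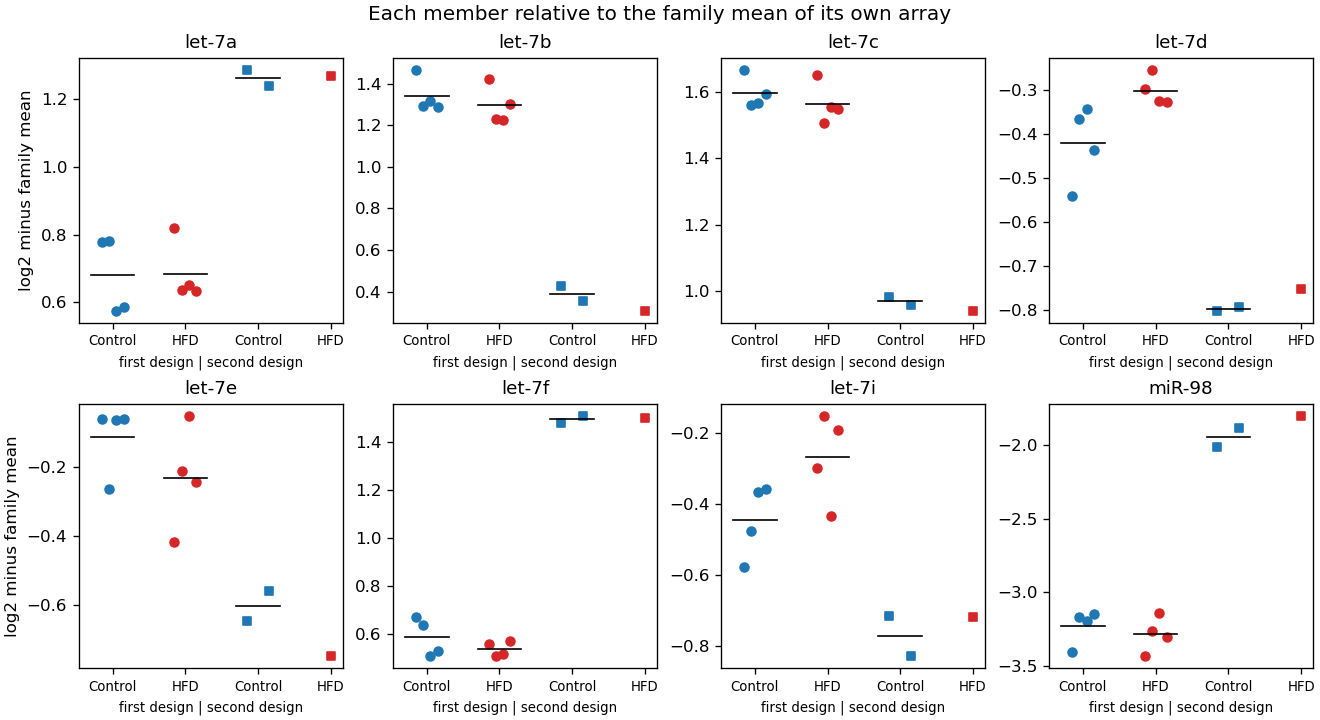
Log2 signal of each member minus the mean of the 8 members on the same array, by group (blue Control, red HFD) and array design (circles first, squares second), with lines for group means. let-7d lies higher on all 5 HFD arrays than on the Control arrays of their design, and all 8 members sit at different places on the 2 designs.

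Some pairs of members kept a steadier ratio across arrays than others. For each pair the SD of their log2 ratio over arrays, within group and design, was smallest for let-7b and let-7c, at 0.043, which differ by 1 base and have neighbouring genes on chromosome 7. let-7c and let-7f, whose genes do not lie together, followed at 0.056, and let-7a and let-7f, neighbours on chromosome 17, at 0.064. Other neighbours were less steady: let-7d had 0.13 with let-7a and 0.11 with let-7f, and miR-98 had 0.15 with let-7f. The least steady pairs were let-7b and miR-98 and let-7a and let-7e, both at 0.20. Likeness of sequence and steadiness went together only in part: the 4 pairs that differ by 1 base had a median SD of 0.069, but their range of 0.043 to 0.20 spanned nearly all pairs, and let-7d and let-7i, which differ by 6 bases, had 0.094. The files do not show whether a probe of one member also binds another, and cross-hybridisation was not tested.

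Within groups and designs the SD ran from 0.076 for let-7d to 0.18 for let-7e, and 8 of 8 members lay below the median of 0.31 over all tested miRNAs and below the median of 0.20 over those detected on all arrays. Other abundant miRNAs had a like spread, among them miR-200c at 0.12, miR-99a at 0.13 and miR-16 at 0.13, and let-7e ranked 41 of 152 from the smallest. These miRNAs were picked after their values were seen. The tested miRNAs outside the family whose centred values over the 11 arrays were nearest the family mean were miR-26b, miR-200b, miR-106b, miR-99a and miR-30e*, with root-mean-square differences of 0.076, 0.082, 0.082, 0.085 and 0.086 on the log2 scale. The median of the tested miRNAs outside the family was 0.29. The members had 0.041 to 0.097, which is lowered by construction because each is part of the family mean. HFD 640, alone in its group and design, is 0 after centring and adds nothing to these values. Such nearness partly reflects small spread: the scaling holds miR-26b at a fixed value on the first design, and miR-30e* averaged 3.43 there, at or near the floor of 3.41.

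The miRNAs made next to let-7 members did not differ detectably either. miR-99b and miR-125a lie 165 and 446 bases from let-7e between hairpin starts, miR-99a lies 720 bases from the chromosome 11 let-7c gene, and miR-100 and miR-125b-1 lie 6908 and 44833 bases from the chromosome 8 let-7a gene. Beside -0.17 for let-7e, miR-99b had 0.029 ± 0.12 and miR-125a-5p 0.042 ± 0.10 (SE). miR-99a had 0.0089 ± 0.097, miR-125b-5p 0.098 ± 0.096 and miR-100 0.25 ± 0.20 (SE). Each of these 5 had a limma adjusted p of 0.987. Further gene copies of these 5 were not looked up, and their outputs would not be told apart on the array. miR-100 was detected on 9 of 11 arrays, with first-design values of 3.82 ± 0.30 in Control and 4.09 ± 0.45 in HFD (SD, n = 4), near the floor.

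Passenger strands, the other arms of the let-7 hairpins, were almost never detected. The arrays carried 9 star names, 4 of them on both designs, and 4 of 59 readings were called detected. These were let-7a-1* on Control 652 and HFD 640, and let-7b* and let-7d* on HFD 653, the array with the widest negative-control signal. The negative-control SD of the second design was also wide, at 7.18 on Control 652 and 9.04 on HFD 640.

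The probes of a member related differently to each other on the 2 designs. On the first design the brighter let-7f probe gave 8.33 to 10.3 times the signal of the dimmer one, and on the second 2.12 to 2.34 times. For let-7c the ratio ran from 7.05 to 8.79 and from 1.71 to 1.93, and for let-7d from 6.90 to 8.49 and from 1.65 to 1.72. miR-98 changed least, from 1.57 to 1.95 on the first design to 1.29 to 1.32 on the second. For 8 of 8 members the ratio was larger on the first design, with a median of 3.31-fold. Of 65 other miRNAs with 2 shared probes and detection on all arrays, 62 also had the larger ratio on the first design, with a median of 2.60-fold. Within the first design the ratio was lower in HFD than in Control for 7 of 8 members, as for let-7c at 7.56 and 8.12 and let-7f at 9.14 and 9.38. let-7a had 4.48 in HFD and 4.36 in Control. For let-7e, counted among the 7, the ratio was 4.71 in both groups to 3 digits. Over the first-design arrays the log2 of the ratio had an SD from 0.063 for let-7a to 0.12 for let-7i. The differences between groups were not tested, and the count by direction was not made for the 65 other miRNAs.

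**Figure D5:**
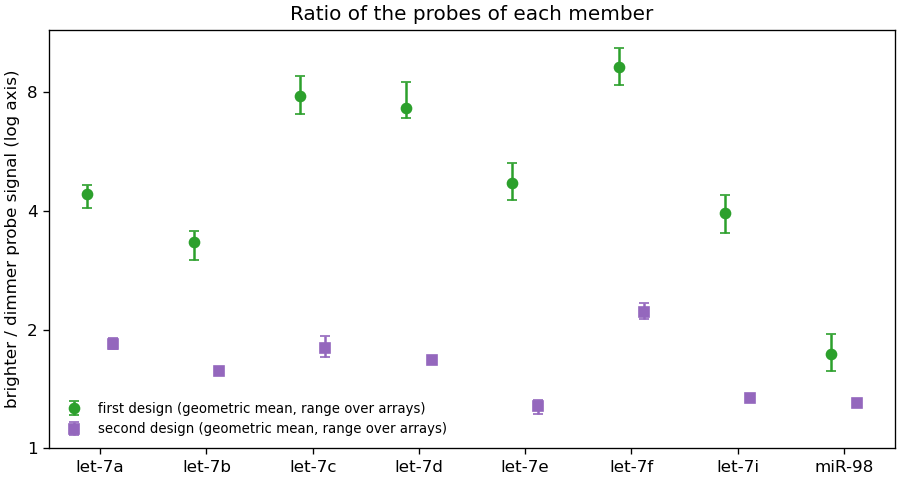
Signal of the brighter over the dimmer probe of each member on a log axis, as the geometric mean with the range over the 8 arrays of the first design (green) and the 3 of the second (purple). The ranges of the 2 designs do not overlap for any of the 8 members.

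The apparent make-up of the family also differed between designs. Relative to the family mean, let-7b differed by -0.96 between the second and the first design, let-7f by 0.94 and miR-98 by 1.36, and for 8 of 8 members the 8 first-design arrays and the 3 second-design arrays did not overlap. The same count was not made for other miRNAs, and some of those also read differently on the 2 designs. In Control, miR-7b averaged 8.43 on the first design and 11.72 on the second, and miR-200c 12.68 and 10.08. Both were picked after their values were seen. The 2 designs carry the same probe names for the members. On the first design let-7b gave more signal than let-7f, and on the second less, so signal levels do not rank the members by abundance. Design and software version coincide, and the slide and scan of each array are not given here. The parts of design, slide, scan and software version in this shift cannot be told apart.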

How the data were processed

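Per the labels' protocols, 100 ng of islet total RNA was Cy3-labelled and hybridised to a 1-colour Agilent miRNA array. The deposited spot intensity, from Agilent Feature Extraction 10.5.1.1 (first design) or 10.7.3.1 (second), has had the background subtracted, per the file headers, with no step between arrays recorded there. The authors' 2 deposited tables hold log2 values: for the members, 88 of 88 cells matched the software's total signal (with 50 added on the first design) within 1%, so they are neither scaled between arrays nor centred and hold no ratios. The submitters' processing notes name RMA and Partek without a role.

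Unflagged spots were averaged per probe, probes summed per miRNA and each array scaled so that its 75th percentile over 85 miRNAs, those detected everywhere, was equal. A floor of 10.6 (1st percentile of detected signals) was set and log2 taken. No member reached the floor. The scaling fixed miR-26b on each first-design array, let-7d on Control 652, and let-7i on both remaining second-design arrays (Control 635, HFD 640), which constrains those members on the second design. The fit was limma 3.58.1 in R 4.3.3 over 152 miRNAs with array design, which coincides with software version, as a block. It was tested on simulated data with independent noise for each miRNA, which held no error in the scaling between arrays. No arrays held identical values. The number of arrays limits the precision. The alternatives were scaling, background, probe summary, floor, filters, block, weights and left-out arrays. All 8 members, the cluster partners, the passenger strands and the 5 nearest miRNAs are named. Members and lists were chosen with earlier results of these data known.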

Additional observations from a re-analysis of the deposited data

Results flagged for a closer look

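Member values of the first design were checked in 34 groups of 4 arrays for 1 array far from the other 3. By Dixon's ratio 4 groups stood out, and chance alone would give about 1.7. let-7f had a ratio of gap to range of 0.850 in Control, where 602 read 11.79 against 11.48 to 11.53. Relative to the family mean of its array, let-7a had 0.91 in HFD (603 at 0.82 against 0.64 to 0.65), let-7b had 0.840 in Control (602 at 1.47 against 1.29 to 1.32) and let-7e had 0.987 in Control (613 at -0.26 against -0.061 to -0.059).

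Among miRNAs outside the comparison, 3 passenger strands were detected on an HFD array above all Control arrays of its design. In the software's total signal let-7b* read 93.8 and let-7d* 79.8 on HFD 653, against at most 3.07 and 4.05 in Control, and that array had a negative-control SD of 11.6. let-7a-1* read 11.3 on HFD 640 against at most 8.71, on Control 652. The negative-control SD was 9.04 on HFD 640 and 7.18 on Control 652, and these total signals are not scaled between arrays.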

How the results depend on the processing

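No member passed in any of the tested alternatives, with adjusted p from 0.801 to 1. The one call over all miRNAs was miR-150 with unscaled arrays, 1 against 0 (limma adjusted p = 0.00062). With the scaling used, miR-150 had 1.72 ± 0.61 (SE; limma adjusted p = 0.987). It was detected on 7 of 11 arrays, and its first-design Control mean of 3.51 lay near the floor of 3.41. HFD 603 read 7.71 and HFD 653, where it was not detected, 6.15, while HFD 607 and 644 read 4.65 and 3.74. The family mean of -0.044 became -0.27 with the percentile taken over all shared names and -0.20 with median scaling, and ran from -0.079 to -0.013 on leaving out 1 array. With the deposited values, 2 members read lower instead of 6, and with unscaled arrays 4 did. The former also differ in using the software's total signal, with 50 added on the first design. On leaving out 1 array 5 to 6 read lower.

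let-7e kept its sign throughout. Signs turned as follows, with causes not tested beyond each setting's construction. Scaled by that percentile, let-7d had -0.17 and let-7i -0.12. Scaled by the median, they had -0.096 and -0.051. let-7d had -0.0074 under quantile normalisation and -0.021 when scaled by the mean log2. Unscaled, let-7a had 0.033 and miR-98 0.024. In the deposited tables let-7a had 0.042, let-7c 0.0048, let-7f 0.0039 and miR-98 0.072. With no block let-7b had 0.063 and let-7c 0.040. let-7c had 0.0097 with its dimmer probe, an alternative chosen after seeing the data. miR-98 had 0.011 with normexp, 0.014 with outlier spots kept and 0.11 on the second design. On leaving out 1 array let-7a ran from -0.072 to 0.015, miR-98 from -0.10 to 0.0051, let-7b from -0.14 to -0.039, let-7c from -0.11 to -0.028, let-7d from 0.026 to 0.080, let-7e from -0.23 to -0.11, let-7f from -0.12 to -0.026 and let-7i from 0.045 to 0.14. Normexp used median spot signals, the ones in the files. With the members left out of the scaling, the family mean was -0.083. Without both HFD 603 and 653, chosen after seeing the data, it was -0.075, with 6 of 8 lower. No paired analysis was possible because the groups share no replicate numbers.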
